A study of Mus musculus with 6 samples.

Results

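The genes described are 10 immediate early genes measured by RNA-seq in mouse cerebellum: Fos, Fosb, Junb, Egr1, Egr2, Egr3, Egr4, Arc, Nr4a1 and Dusp5. They were found by gene symbol, and all 10 were among the 55098 genes of the deposited table. The set was chosen by these names with the KO to WT values of the same libraries in view, and Egr3 was singled out on those values and on its place near the knocked-out gene. The KO to WT values of the members are therefore given as a description, and the counts of members called are not independent evidence. Each library came from the entire cerebellum of a male mouse aged 60 days after birth. The tested mice were labelled as Slc39a14 knock-outs (KO; animals 2, 4 and 6) and the controls as Slc39a14 wildtype (WT; animals 1, 3 and 5), with 1 library per animal. The protein product of Slc39a14 is ZIP14, which carries manganese and other divalent metals into cells. The labels name no strain, treatment or design of the allele.

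Immediate early genes are transcribed within minutes of a calcium or growth factor signal, without the need for new protein, and their RNA is short-lived. In neurons the signal reaches them mainly through the transcription factors SRF, with its partners of the ELK family, and CREB. Some members encode transcription factors (the FOS and JUN proteins of the AP-1 dimer, the zinc finger proteins of the EGR family, the nuclear receptor Nr4a1), and others act directly at the synapse (Arc) or shut the ERK pathway off again (Dusp5). In the cerebellum these genes are commonly read as markers of recent synaptic activity, and handling of the animal can move them.

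RefSeq promoter windows of 300 bases around the transcript start (GRCm38.p6) were matched for 7 members; Egr1, Egr3 and Arc are named only. Windows are shown for the 5 members that were lowest together in a single KO animal (Fos, Fosb, Junb, Egr4 and Nr4a1) and for Dusp5, which was not. Each is printed 5′ to 3′ on the strand of the gene, and capitals mark the motifs searched on both strands.
Fos (chr12:85473640-85473939, plus strand): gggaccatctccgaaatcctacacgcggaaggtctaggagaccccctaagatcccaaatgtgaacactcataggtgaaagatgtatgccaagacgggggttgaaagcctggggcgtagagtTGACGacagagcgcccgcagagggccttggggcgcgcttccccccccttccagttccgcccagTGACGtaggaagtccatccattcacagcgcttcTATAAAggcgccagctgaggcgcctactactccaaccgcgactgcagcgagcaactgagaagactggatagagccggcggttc
Fosb (chr7:19309996-19310295, minus strand): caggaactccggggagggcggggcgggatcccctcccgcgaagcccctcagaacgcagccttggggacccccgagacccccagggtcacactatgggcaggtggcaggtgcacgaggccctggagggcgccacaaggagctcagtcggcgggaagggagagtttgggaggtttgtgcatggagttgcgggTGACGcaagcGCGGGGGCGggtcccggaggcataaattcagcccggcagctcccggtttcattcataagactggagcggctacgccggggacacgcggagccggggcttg
Junb (chr8:84978699-84978998, minus strand): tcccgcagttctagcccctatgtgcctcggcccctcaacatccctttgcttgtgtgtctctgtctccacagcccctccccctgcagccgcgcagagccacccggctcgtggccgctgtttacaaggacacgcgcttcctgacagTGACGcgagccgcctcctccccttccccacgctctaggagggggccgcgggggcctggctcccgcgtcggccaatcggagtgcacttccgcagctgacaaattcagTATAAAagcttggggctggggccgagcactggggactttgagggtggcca
Egr4 (chr6:85513540-85513839, minus strand): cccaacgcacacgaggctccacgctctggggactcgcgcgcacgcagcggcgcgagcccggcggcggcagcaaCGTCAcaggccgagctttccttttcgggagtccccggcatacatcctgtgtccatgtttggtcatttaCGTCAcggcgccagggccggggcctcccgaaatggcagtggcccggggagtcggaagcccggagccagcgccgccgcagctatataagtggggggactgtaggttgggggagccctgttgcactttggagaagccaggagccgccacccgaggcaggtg
Nr4a1 (chr15:101266596-101266895, plus strand): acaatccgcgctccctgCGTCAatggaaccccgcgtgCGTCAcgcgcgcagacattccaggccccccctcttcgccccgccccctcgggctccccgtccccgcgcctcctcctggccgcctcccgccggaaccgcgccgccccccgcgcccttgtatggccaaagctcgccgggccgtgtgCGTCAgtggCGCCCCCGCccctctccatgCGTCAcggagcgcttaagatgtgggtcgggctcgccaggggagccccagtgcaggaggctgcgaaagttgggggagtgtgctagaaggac
Dusp5 (chr19:53528895-53529194, plus strand): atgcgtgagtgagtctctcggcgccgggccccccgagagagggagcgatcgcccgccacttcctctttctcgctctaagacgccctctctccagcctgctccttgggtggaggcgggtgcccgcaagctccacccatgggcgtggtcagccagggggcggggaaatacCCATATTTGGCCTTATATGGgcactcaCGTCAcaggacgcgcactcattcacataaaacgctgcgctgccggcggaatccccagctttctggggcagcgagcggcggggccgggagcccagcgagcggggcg
The motifs searched were the full cAMP response element TGACGTCA, its 5-base part TGACG (reverse strand CGTCA), the CArG box of SRF, the EGR site GCGNGGGCG, the AP-1 site TGANTCA and the TATA box TATAAA; the 5-base part lies within the full element. TGACG stood in the windows of 7 of 7 members, and 20.8% of 32817 mouse promoter windows of the same length held it. The Fos window had it 129 and 66 bases before the start, and the Nr4a1 window held 4 copies. A CArG box was found in Dusp5 and in windows of Egr2, against 1.63% of all windows. In Dusp5, 2 copies lie side by side 82 and 72 bases before the RefSeq start. The EGR site was found in Fosb and Nr4a1 (5.56% of all windows). The TATA box (13.6%) was found in Fos, 33 bases before the start, and in Junb, at the RefSeq start itself. All these distances are from RefSeq starts, which differ from the deposited gene starts for Junb, Nr4a1 and Dusp5 among others. For Junb, on the minus strand, the deposited start (84978718) lies downstream of that TATA box. The full cAMP response element (1.79%) and the AP-1 site (7.81%) were in 0 of 7. A member was counted if any of its windows held the motif, whereas the shares are per window. Egr2 had 5 windows, some of them overlapping, so the shares are not a like rate for it. Sequence outside the windows was not searched, so a motif absent here can lie elsewhere near the gene. A match describes the letters of the window and does not show that a factor binds there.

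The libraries held 13805997 to 15788135 counts. Slc39a14 itself was at 41.0, 39.8 and 45.8 CPM in KO 2, 4 and 6 and at 42.2, 41.1 and 43.8 CPM in WT 1, 3 and 5 (CPM, TMM-normalized counts scaled to a common library size), so the gene count did not separate the genotypes and every direction rests on the labels. Granule cell and Purkinje cell markers were abundant in every library. KO 4 stood apart in a list of 12 forebrain neuron markers. The list summed to 14.7, 34.3 and 13.5 CPM in KO 2, 4 and 6 and to 15.9, 13.6 and 16.3 CPM in WT 1, 3 and 5, and 9 of the 12 genes were highest in KO 4. Tbr1, a factor of forebrain glutamatergic neurons, had 10, 79 and 6 counts in KO and 6, 15 and 3 in WT. Dlx1, a factor of forebrain inhibitory neurons, had 3, 44 and 3 counts in KO and 4, 0 and 4 in WT. The KO 4 library thus carried more forebrain marker RNA than any other library. Values with and without it are given for some results only, among them the fold change, spread and likeness of Egr3. KO 4 and WT 5 also lay apart from the other libraries on the first principal component (15.4 and 25.9, against -15.2 to -4.8).

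Egr3 was the member whose genotypes were farthest apart. Egr3 (ENSMUSG00000033730, chromosome 14, 70077203 to 70082614, plus strand, GRCm38.p6) encodes an EGR zinc finger factor. Mice that lack it are ataxic because their muscle spindles do not form. It had 58, 155 and 64 counts in KO 2, 4 and 6 and 32, 30 and 42 counts in WT 1, 3 and 5. In CPM these were 3.64, 10.8 and 4.58 in KO and 2.32, 1.91 and 3.07 in WT. The lowest KO library lay above the highest WT library, and KO 4 lay far above all others. Relative to the WT mean, KO 2, 4 and 6 stood at 1.496, 4.44 and 1.88, whereas WT 1, 3 and 5 stood at 0.952, 0.785 and 1.26.

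Egr3 averaged 6.34 ± 3.89 CPM over the KO animals, against 2.43 ± 0.591 CPM over the WT animals (SD, n = 3 each). This gave a log2 fold change of 1.38 (SE 0.41). The authors' deposited table gives the same 1.38. Without KO 4 the log2 fold change was 0.76, and without both WT 5 and KO 4 it was 0.96. With all libraries kept, the lowest KO value (KO 2, 3.64 CPM) exceeded the highest WT value (WT 5, 3.07 CPM). Leaving out libraries could therefore not make the genotypes overlap, and these alternatives bear only on the size of the fold change.

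Among all members, 9 of 10 had enough counts to be tested. At an edgeR adjusted p under 0.05, 0 of these 9 were called, where 0.0467% of the 17142 genes tested were called, and 471 genes had an unadjusted p under 0.05. The authors' deposited table likewise called 0 of the 10, and 0.128% of its genes with a value. With genes of low count kept in the fit, Egr3 alone of the members was called, and 0.443% of 32046 genes were called there; since Egr3 was singled out on the same values, nothing is read from that call. All KO libraries exceeded all WT libraries in 1 of the 9 members, Egr3, and in 3.58% of all genes tested. All KO libraries lay under all WT libraries in 0 of the 9, and in 3.69% of all genes tested.

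**Figure D1:**
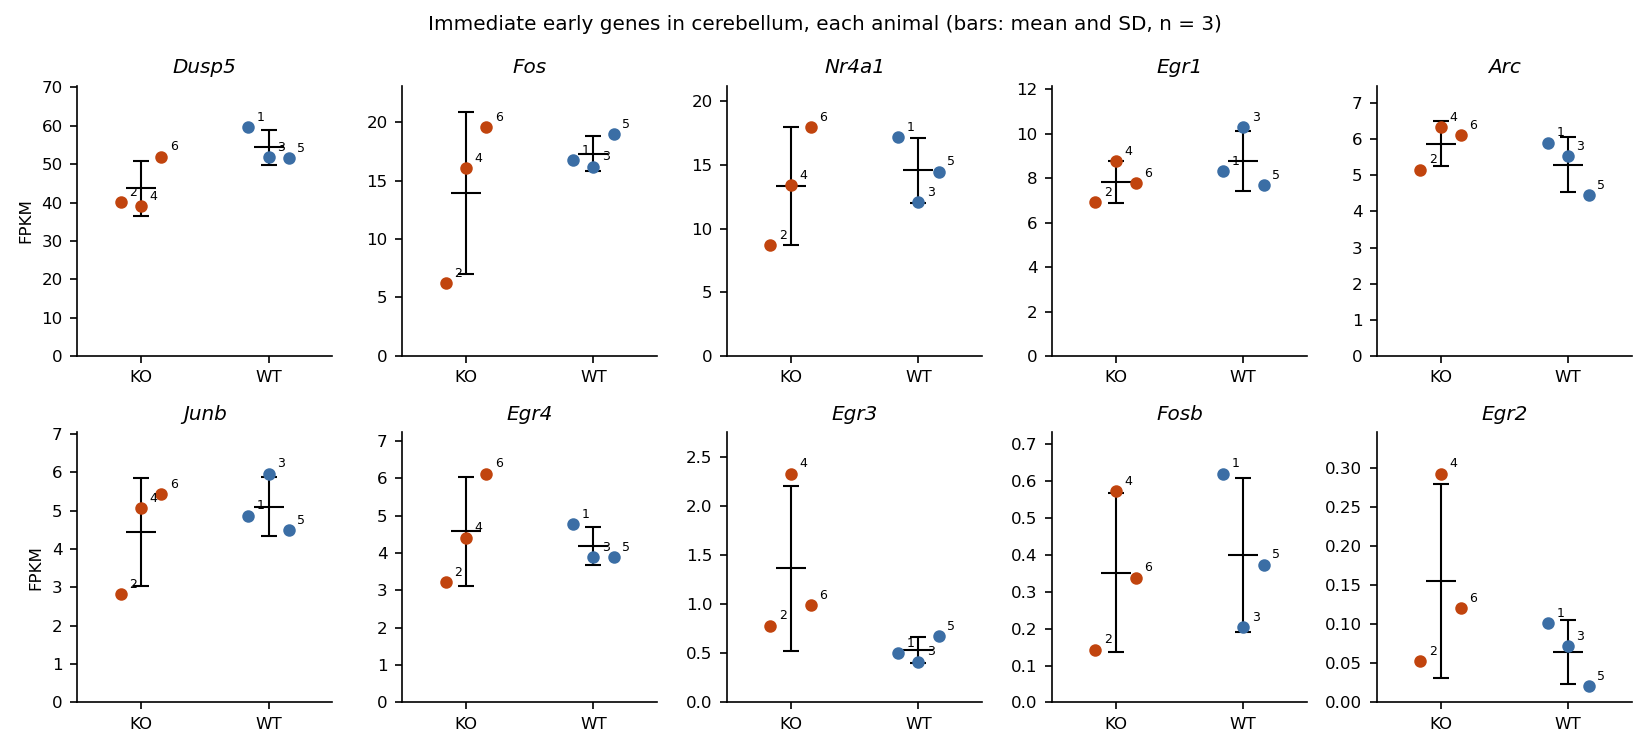
Level of each of the 10 immediate early genes in FPKM, in order of mean level, with a point for each animal (number beside it) and bars for mean and SD of 3 KO (left, red) and 3 WT (right, blue) animals. Egr3 is the panel in which the lowest KO point lies above the highest WT point, with KO 4 at 2.33 FPKM, and KO 2 is the lowest point for Fos, Fosb, Junb, Egr1, Egr4 and Nr4a1.

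Other measures were spread over the same libraries as Egr3. The 19 choroid plexus markers, of which 19 were tested, summed to 2311, 3395 and 1084 CPM in KO 2, 4 and 6 and to 1424, 610 and 462 CPM in WT 1, 3 and 5. They were highest in KO 4, as Egr3 was, but WT 1 lay above KO 6. The 20 interferon response genes summed to 304, 285 and 376 CPM in KO and to 171, 166 and 170 CPM in WT. The 12 microglia markers summed to 138, 149 and 172 CPM in KO and to 117, 127 and 124 CPM in WT. Both sums separated the genotypes, and both were highest in KO 6 rather than KO 4. None of the genes of these 3 lists was at 0 in all libraries. The part of these markers, and of the forebrain transcripts in KO 4, in the Egr3 values was not tested. In bulk tissue, more cells that express Egr3 and more Egr3 RNA per cell cannot be told apart.

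On chromosome 14 the lower coordinates of Egr3 and Slc39a14 lie 226 kb apart. Of the 27 other genes tested whose lower coordinate lies within 1 Mb of that of Egr3, 0 were called and 0 had a log2 fold change as far from 0. Their median log2 fold change was 0.005, and 15 were positive. The nearest tested protein-coding genes downstream were Bin3 (0.15), a BAR domain protein, Ccar2 (-0.02), a regulator of the deacetylase SIRT1, and 9930012K11Rik (0.49). Those upstream were Rhobtb2 (-0.11), a BTB domain protein, Tnfrsf10b (0.05), a TRAIL receptor, and Chmp7 (0.04), a subunit of ESCRT-III. Each of these 6 had libraries that overlapped between genotypes. The genotypes did not overlap in 2 of the 27 (7.41%), against 7.26% of all genes tested. KO lay above WT throughout in Pdlim2, a PDZ and LIM domain protein, named after its values were seen. Pdlim2 was at 12.9, 9.54 and 13.0 CPM in KO 2, 4 and 6 and at 8.55, 8.47 and 8.34 CPM in WT 1, 3 and 5 (log2 fold change 0.48, SE 0.17). Its order among the KO animals was not that of Egr3, since KO 4 was the lowest KO library for Pdlim2. Slc25a37, the mitochondrial iron importer mitoferrin-1, lay below WT throughout, with 25.3 ± 0.734 CPM over KO animals and 31.4 ± 1.15 CPM over WT animals (SD, n = 3 each). Its log2 fold change was -0.31 (SE 0.11).

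**Figure D2:**
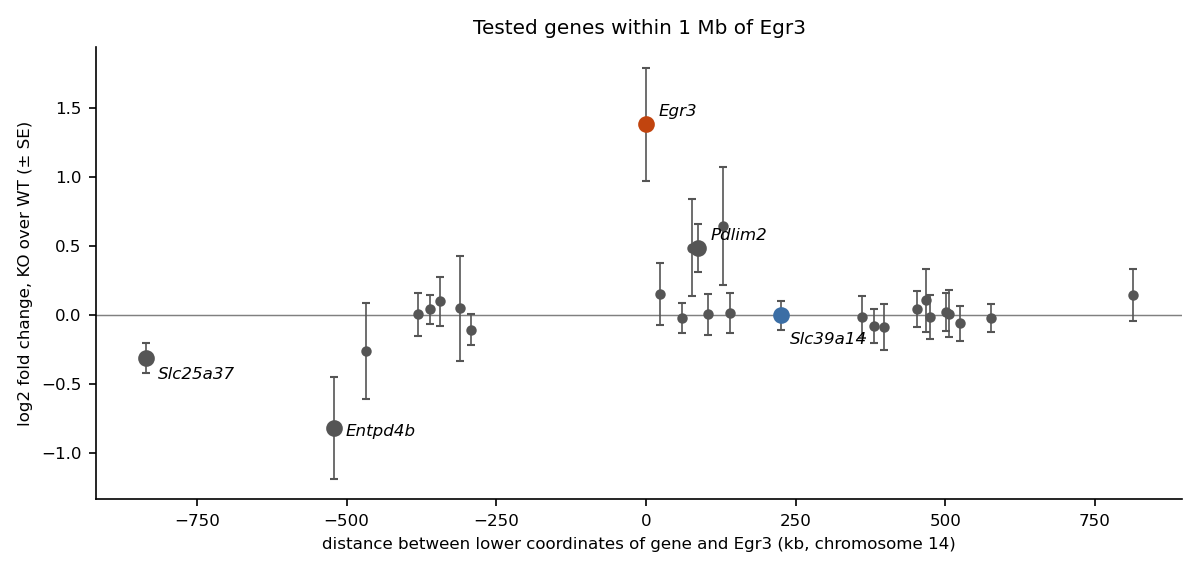
Log2 fold change of KO over WT (± SE of the edgeR fit, 3 animals per genotype) for Egr3 and the 27 other genes tested within 1 Mb, by distance between the lower coordinates of the gene and of Egr3 in kb. Egr3 (red) is at 1.38, Slc39a14 (blue) is at -0.004 and lies 226 kb away, and no other gene is as far from 0 as Egr3.

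Of the other members of the EGR family, Egr1 and Egr4 did not share the Egr3 profile. Egr2 was too low for this to be judged. Egr1 (chromosome 18, 34859823 to 34864984), the most abundant of the family, encodes the factor also called Zif268. It was at 32.7, 41.4 and 36.7 CPM in KO 2, 4 and 6 and at 39.04, 48.2 and 35.7 CPM in WT 1, 3 and 5. WT 3 was the highest library and KO 2 the lowest, and the genotypes overlapped (log2 fold change -0.15, SE 0.14).

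Egr4 (chromosome 6, 85511121 to 85513589) was at 7.28, 9.96 and 13.8 CPM in KO and at 10.7, 8.72 and 8.64 CPM in WT (log2 fold change 0.14, SE 0.23). The KO libraries included both its lowest and its highest value.

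Egr2 (chromosome 10, 67535475 to 67542188), known as Krox20 for its roles in the hindbrain and in myelination by Schwann cells, was too low to be tested. It had 3, 15 and 6 counts in KO 2, 4 and 6 and 5, 4 and 1 counts in WT 1, 3 and 5. KO 4 was its highest library, as for Egr3, but KO 2 lay below WT 1 and WT 3. The exact 95% counting interval of the 15 counts in KO 4 ran from 8.40 to 24.7, and that of the 5 counts in WT 1 from 1.62 to 11.7. These intervals cover counting error only. The authors' deposited table gives Egr2 a log2 fold change of 1.26 and does not call it.

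On the length-corrected FPKM scale, Egr3 made up 7.14%, 14.7% and 6.59% of the summed level of Egr1 to Egr4 in KO 2, 4 and 6. In WT 1, 3 and 5 it made up 3.67%, 2.83% and 5.49%. Egr1 exceeded Egr3 by 8.83-fold, 3.77-fold and 7.86-fold in KO and by 16.6-fold, 24.8-fold and 11.4-fold in WT.

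The genes of the AP-1 factors varied among the KO animals and were not separated by genotype. Fos (chromosome 12, 85473890 to 85477273), the textbook reporter of neuronal activation, was at 15.4, 39.8 and 48.4 CPM in KO 2, 4 and 6 and at 41.3, 39.7 and 46.2 CPM in WT 1, 3 and 5. KO 2 stood at well under the level of every other library, while KO 4 and KO 6 lay within or just above the WT range. Fos averaged 34.5 ± 17.1 CPM over KO animals and 42.4 ± 3.37 CPM over WT animals (SD, n = 3 each), or -0.30 on the log2 scale (SE 0.32). Without KO 2 the log2 fold change of Fos was 0.06.

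Fosb (chromosome 7, 19302696 to 19310051), whose truncated product accumulates with repeated stimulation, was at 0.941, 3.76 and 2.22 CPM in KO and at 4.06, 1.34 and 2.42 CPM in WT. These rest on 15, 54 and 31 counts in KO and 56, 21 and 33 in WT, and the libraries of both genotypes spread over the same range (log2 fold change -0.17, SE 0.51). Its log2 fold change was 0.21 without KO 2, 0.30 without WT 1 and -0.72 without KO 4.

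Junb (chromosome 8, 84974484 to 84978718), a JUN partner of FOS proteins, was at 6.84, 12.3 and 13.1 CPM in KO 2, 4 and 6 and at 11.7, 14.3 and 10.7 CPM in WT 1, 3 and 5. Again KO 2 was the lowest library (log2 fold change -0.19, SE 0.24), and without it the value was 0.05. Junb overlaps Prdx2 on the opposite strand, which had 13215 counts over the 6 libraries against 1001 for Junb. No source used here says whether reads were counted by strand, so the Junb count is uncertain.

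Nr4a1 (chromosome 15, 101254269 to 101274795), the orphan nuclear receptor Nur77, was at 32.2, 49.5 and 66.3 CPM in KO 2, 4 and 6 and at 63.2, 44.2 and 52.6 CPM in WT 1, 3 and 5. It had its lowest value in KO 2 and its highest in KO 6, so that the KO libraries enclosed the WT range (log2 fold change -0.11, SE 0.23). Without KO 2 the log2 fold change was 0.12, and without WT 1 the sign was also the opposite.

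Arc (chromosome 15, 74669083 to 74672570) encodes a protein that drives AMPA receptors into the cell and is needed for lasting depression at Purkinje cell synapses. Arc was among the steadiest members, at 16.6, 20.3 and 19.6 CPM in KO 2, 4 and 6 and at 18.9, 17.6 and 14.1 CPM in WT 1, 3 and 5. KO 4 was highest and WT 5 lowest, with overlap between the genotypes (log2 fold change 0.16, SE 0.15).

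Dusp5 (chromosome 19, 53529109 to 53542431), a nuclear phosphatase of ERK, was the most abundant member. It was at 104, 101 and 135 CPM in KO and at 154, 134 and 132 CPM in WT. KO 2 and KO 4 lay below every WT library and KO 6 lay between WT 3 and WT 1 (log2 fold change -0.30, SE 0.13). With each library left out in turn its log2 fold change ran from -0.45 to -0.22.

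In order of mean FPKM over the 6 libraries, Dusp5 (49.0 ± 7.98, SD, n = 6) stood above Fos (15.6 ± 4.85) and Nr4a1 (13.98 ± 3.42). Egr1 (8.30 ± 1.16), Arc (5.58 ± 0.697), Junb (4.77 ± 1.08) and Egr4 (4.38 ± 1.00) came next. Egr3 (0.950 ± 0.707), Fosb (0.376 ± 0.192) and Egr2 (0.110 ± 0.0962) were lowest. Fos exceeded Nr4a1 in 4 of the 6 libraries, Arc exceeded Junb in 4 and Junb exceeded Egr4 in 4, so these neighbours were not apart beyond their spread. Egr3 exceeded Fosb in 5 of the 6, and every other neighbour was in the same order in all 6 libraries.

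Seen by animal rather than by genotype, KO 2 was the low library of the set. It was the lowest of the 6 libraries in 6 of the 9 tested members (Fos, Fosb, Junb, Egr1, Egr4 and Nr4a1) and the highest in 0. The median of the 8 tested members other than Egr3, each centred over the 6 libraries on the log2 CPM scale, was -0.52, 0.11 and 0.18 in KO 2, 4 and 6. It was 0.17, 0.04 and 0.003 in WT 1, 3 and 5. Egr3 stood at -0.02, 1.51 and 0.30 in KO and at -0.64, -0.90 and -0.25 in WT on the same scale. In KO 2, where Fos and Fosb were lowest at -1.23 and -1.11, Egr3 was close to its own mean and above every WT library. KO 2 was also the lowest KO library for Egr3. With genotype means removed, the correlation r of Egr3 with the other tested members ran from -0.36 (Dusp5) to 0.75 (Fosb). It was 0.54 with Fos. KO 4 lay farthest from its genotype mean for Egr3, and these r values were not computed without it. Of the 9 tested members, 3 had a positive log2 fold change, against 48.8% of all genes tested. The count of positive members was 7 without KO 2 and 3 without KO 4. KO 2 had 15754275 counts and 3.34% mitochondrial counts, both within the range of the other libraries. The 11 granule cell markers, all tested, summed to 6508, 6646 and 6733 CPM in KO 2, 4 and 6 and to 7285, 7310 and 6983 CPM in WT 1, 3 and 5. KO 2 had the lowest sum, but on the mean of centred log2 levels, which weights the markers equally, KO 4 was lowest (-0.08, -0.10 and 0.02 in KO 2, 4 and 6, and 0.08, 0.11 and -0.02 in WT 1, 3 and 5). The part of granule cell RNA in the early gene values was not tested.

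**Figure D3:**
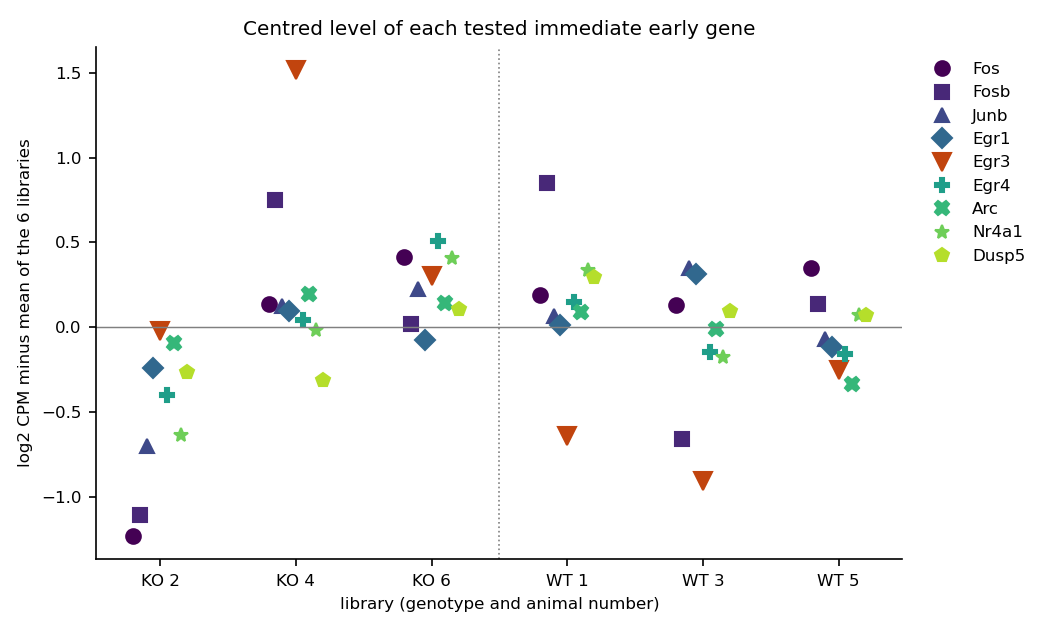
Level of each tested immediate early gene in each library, as log2 CPM minus the mean of that gene over the 6 libraries. In KO 2 the other members lie below 0 with Fos at -1.23, whereas Egr3 (red triangles) lies at -0.02 in KO 2, at 1.51 in KO 4 and below 0 in all 3 WT libraries.

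The members varied more between animals of a genotype than most genes of like level. The SD of log2 CPM within genotype was 0.63 for Fos, 0.85 for Fosb, 0.62 for Egr3 and 0.41 for Nr4a1. Among the 500 tested genes nearest in level, these SDs stood at percentiles 99.6, 97.4, 93.4 and 98.4 in that order. Junb (0.39) and Egr4 (0.35) stood at percentiles 92.6 and 84.0. Dusp5 (0.18), Egr1 (0.20) and Arc (0.19) were closer to the middle, at percentiles 73.2, 67.6 and 52.2. For Fos the median of genes of like level was 0.16. The library farthest from the mean of its genotype was KO 2 for Fos and Nr4a1 and KO 4 for Egr3. On the centred scale Fos was at -1.23, 0.14 and 0.42 in KO 2, 4 and 6 and at 0.19, 0.13 and 0.35 in WT 1, 3 and 5. The high SD of Fos thus rests mainly on KO 2. The SD of the members without KO 2 was not computed. Without KO 4 the SD within genotype was 0.30 for Egr3 and 0.68 for Fos. The median for genes of the Egr3 level was 0.30 with KO 4 kept, so it is not over the same libraries.

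**Figure D4:**
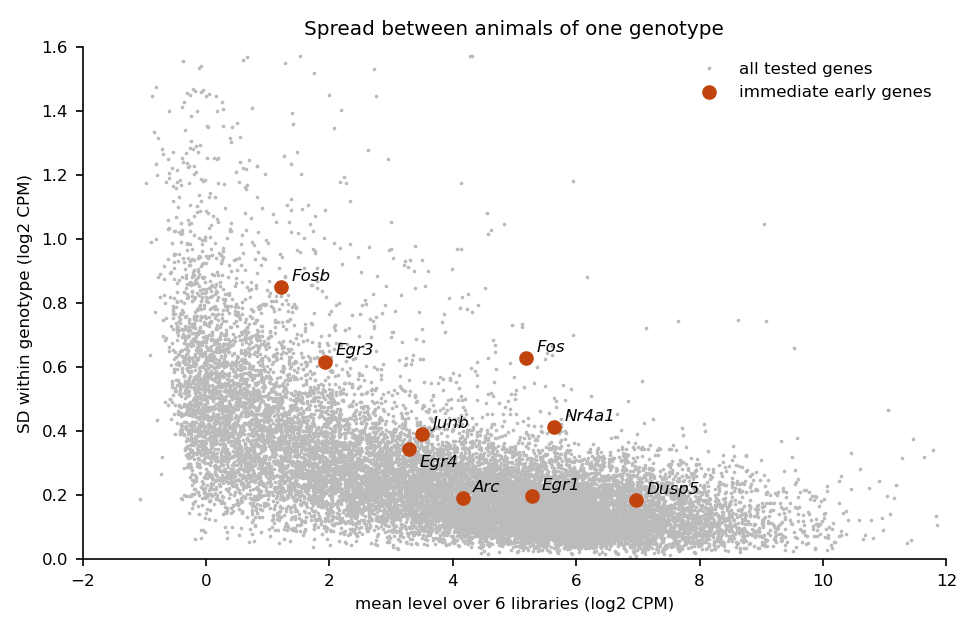
SD of log2 CPM within genotype (4 degrees of freedom over 6 libraries) against mean log2 CPM, for all 17142 tested genes (grey) and the 9 tested immediate early genes (red). Fos and Nr4a1 lie above nearly all genes of like level, and Arc lies among them; 29 genes with an SD above 1.6 and 2 genes beyond the level axis are not shown.

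The profiles of 13674 protein-coding genes of at least 1 CPM were compared with that of Egr3 over the 6 libraries. Those with the highest Pearson r were Bgn (r = 0.98, Spearman coefficient 1.00), Adamtsl3 (0.98, 0.94), Mettl2 (0.98, 0.89), Irak1bp1 (0.97, 0.94) and Erap1 (0.97, 0.94). An r above 0.9 with Egr3 was found for 84 genes. Over the 5 libraries without KO 4 the r of these 5 genes was 0.89 to 0.93, and 154 genes had an r above 0.9, of which 20 were among the 84. Bgn, the matrix proteoglycan biglycan, was at 13.6, 18.5 and 14.7 CPM in KO and at 12.6, 12.5 and 13.0 CPM in WT, a smaller range than that of Egr3. The mean centred level of the other 8 tested members was -0.58 in KO 2 and -0.01 to 0.25 in the other libraries. Likeness to it without KO 2 was not examined. The genes most like this mean were Eif1b, Adgrg6, Nelfe, Trub2 and Nr4a2, with r of 0.97 to 0.98 and Spearman coefficients of 0.77 to 1.00. Of these, Nr4a2 is itself an early gene of the Nr4a family, at 15.8, 36.6 and 32.02 CPM in KO 2, 4 and 6 and at 36.1, 28.0 and 30.4 CPM in WT 1, 3 and 5. The points are the same 6 libraries in each case and share their depth and composition, so these values only describe likeness.

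Beyond the members, 80 genes of the activity-regulated programme and its regulators were examined in 5 lists, and 78 could be tested. None was called in either direction by edgeR, where 0.0467% of all genes were, and 3 had an unadjusted p under 0.05, all late activity genes. None lay as far from 0 as Egr3. Every KO library lay below every WT library in 4 of the 78 (Trib1, Vgf, Scg2 and Mkl2; 5.13%, against 3.69% of all genes tested) and above in 0.

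Of 23 other early transcription factors, all tested, 7 were positive and 16 negative, with a median log2 fold change of -0.11 (-0.004 over all genes tested). Npas4, a factor induced by neuronal calcium, was at 5.46, 11.6 and 12.8 CPM in KO 2, 4 and 6 and at 14.1, 12.8 and 13.2 CPM in WT 1, 3 and 5 (-0.42, SE 0.27). Its low library was again KO 2, and KO 6 overlapped WT. Per1, a clock gene with an early response, was at -0.21, Jun at -0.19, and Cebpb, a factor of inflammatory responses, at 0.50 on the log2 scale. Without KO 4, the lowest library for Per1 and Jun, these log2 fold changes were -0.07, -0.01 and 0.57. KO 2 was the lowest library in 6 of the 23 (Fosl2, Nr4a2, Nr4a3, Npas4, Ier2 and Nfil3), KO 4 in 8 and WT 5 in 6. The list as a whole summed to 429, 426 and 554 CPM in KO 2, 4 and 6 and to 582, 514 and 467 CPM in WT 1, 3 and 5. KO 2 and KO 4 were thus the lowest libraries for the summed list.

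Of 20 early feedback and effector genes, 19 were tested, 12 were positive and the median was 0.02. Dusp1, a phosphatase of MAP kinases, was at 31.1, 55.6 and 82.3 CPM in KO 2, 4 and 6 and at 65.3, 86.8 and 61.0 CPM in WT 1, 3 and 5 (log2 fold change -0.34, SE 0.29), with KO 2 lowest as for Fos. Dusp2, a phosphatase of the same family, had the largest value (0.92, SE 0.42), with 2.09 ± 0.897 CPM over KO animals and 1.10 ± 0.382 CPM over WT animals (SD, n = 3 each). Homer1, a scaffold of glutamate receptors, was at -0.15 and Rasd1, a small G protein, at 0.47.

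Late activity genes are induced after the early factors. Of 10 such genes 9 were tested, 2 were positive and 7 negative, with a median log2 fold change of -0.04. Vgf, a neuropeptide precursor, was at 29.3, 24.6 and 39.04 CPM in KO 2, 4 and 6 and at 48.1, 53.2 and 43.2 CPM in WT 1, 3 and 5 (-0.64 on the log2 scale, SE 0.17, edgeR adjusted p = 1.00). Scg2, a granin of secretory vesicles, was at 130, 137 and 141 CPM in KO and at 163, 158 and 188 CPM in WT (-0.32 on the log2 scale, SE 0.10, edgeR adjusted p = 1.00). In both genes the genotypes did not overlap, and neither passed over all genes. Without KO 4 the log2 fold change was -0.49 for Vgf and -0.32 for Scg2. Bdnf, a neurotrophin, was at 14.2, 18.0 and 15.2 CPM in KO and at 17.7, 20.9 and 25.5 CPM in WT, with KO 4 above WT 1 (-0.43 on the log2 scale, SE 0.17, edgeR adjusted p = 1.00). Nrn1, an activity-induced surface protein, was at -0.13.

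Of 20 upstream regulators, all tested, 6 were positive and the median was -0.04. Camk4 and Ppp3ca, a kinase and the phosphatase calcineurin in the calcium pathway to these genes, were at -0.11 and -0.06 on the log2 scale. Camk2a was at 0.28 and was highest in KO 4, at 143, 225 and 161 CPM in KO 2, 4 and 6 and at 141, 150 and 145 CPM in WT 1, 3 and 5. Mef2c was at 0.23 and was also highest in KO 4. Without KO 4 the log2 fold change was 0.07 for Camk2a and -0.07 for Mef2c. Of 7 EGR partners and reported targets, 2 were positive, with a median of -0.04. Syn1 was at -0.14, Cdk5r1 at -0.03, the neurotrophin receptor Ngfr at 0.26 and the serotonin receptor Htr2a at -0.17. The EGR corepressors Nab1 and Nab2, named for their role, were at -0.04 and -0.14.

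**Figure D5:**
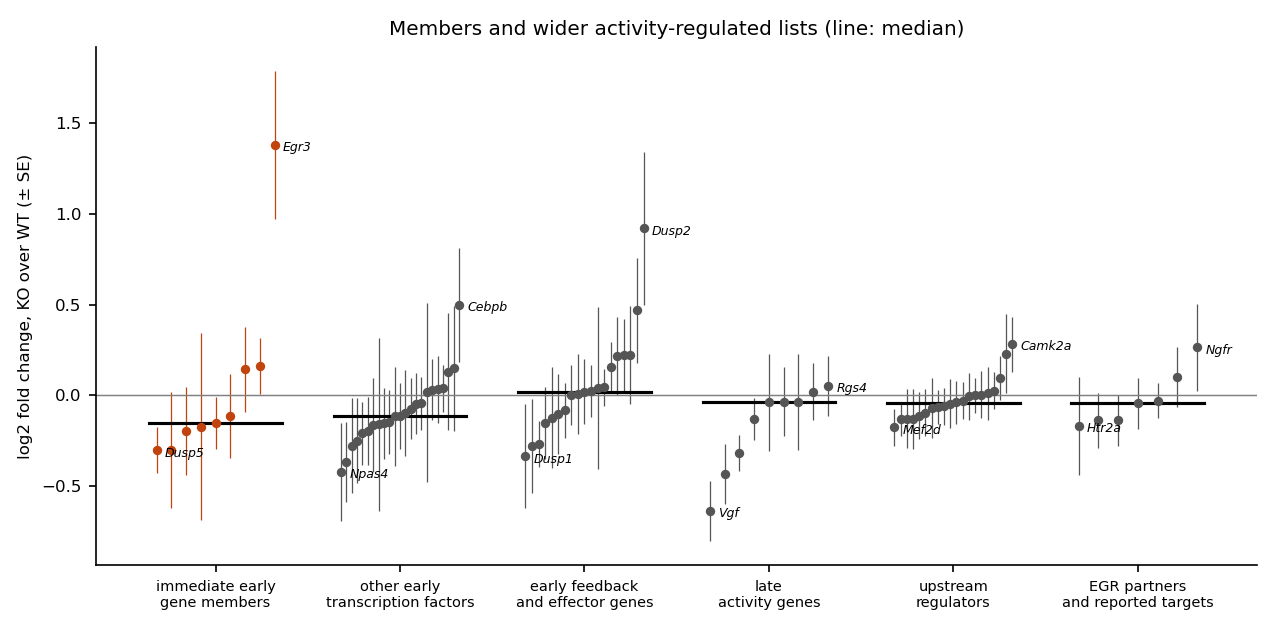
Log2 fold change of KO over WT (± SE of the edgeR fit, 3 animals per genotype) for the 9 tested immediate early genes (red) and 5 wider lists (grey), sorted within each list, with a line at the median and the lowest and highest gene named. Egr3 at 1.38 lies above all 78 genes of the wider lists, and the other members lie between -0.30 and 0.16.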

How the data were processed

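TRIZOL was used to isolate cerebellar RNA, and a company built and sequenced the libraries, per the labels' protocols. HISAT2, DESeq2 and GRCm38.p6 are named without versions in the submitters' processing notes, and no source used here names the counting program or its strand setting. Read counts per gene and library were deposited as whole numbers. The deposited FPKM columns hold the authors' values per kilobase and library size. The authors' group means are a normalized signal that was not used, and their log2 fold change and adjusted p-value columns are quoted only as theirs.

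Sample titles gave the group and animal number. The test on counts was edgeR 4.0.16 under R 4.3.3 (quasi-likelihood F test, TMM, filterByExpr by group, Benjamini-Hochberg adjustment over 17142 genes, calls at an adjusted p under 0.05). Fold changes are KO over WT on the log2 scale, their SE was derived from the F statistic, and centred levels use log2 CPM with a prior count of 2. One count was worth 0.0628 to 0.0732 CPM. The edgeR step was tested on simulated data. Alternatives were other normalizations, filters and tests (DESeq2 1.42.0, limma-voom in limma 3.58.1), a term for WT 5 and KO 4, and each library left out. The labels do not say whether animals were littermates, so it is not known whether the animals are independent. The p-values set the KO to WT difference against the spread between animals of a genotype.

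Members, lists and tests were chosen with earlier results of these data known. The text names all members, in each wider list the 2 most abundant genes and the 2 farthest from 0 of at least 1 CPM, the 3 tested protein-coding genes on either side of Egr3 and the 5 most alike genes; others are said to be named after their values were seen or follow from a count or a role. Symbols, gene positions and lengths are those of the deposited table. Promoter sequences and the starts used for motif distances are from RefSeq. Python 3.11.15 with pandas 2.3.3 and matplotlib 3.10.9 was used for tables and figures.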

Additional observations from a re-analysis of the deposited data

How the results depend on the processing

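No paired analysis was possible because KO and WT animals share no replicate numbers. The number of genes called over all genes (8, all higher in KO) was 142 (117 higher and 25 lower) with no low-count filter, 45 (40 and 5) by DESeq2, 33 (31 and 2) with a term for WT 5 and KO 4, and 40 (37 and 3) without both, the last chosen after seeing the data. With single libraries left out it ran from 0 to 28, with 0 to 28 higher and 0 to 3 lower; it was 0 without WT 1 or WT 3, 28 without WT 5, 2 without KO 2, 17 without KO 4 and 3 without KO 6. Members called were 0 in every alternative except the fit with no low-count filter, where 1 (Egr3) was called, together with 1 late activity gene (Vgf). The number of positive members ran from 2 to 7 with single libraries left out (3 in the fit of all libraries, 2 without KO 6, 7 without KO 2, 5 without WT 1). Over 15 alternatives the sign was kept for Egr1, Egr3 and Dusp5; Egr3 ran from 0.76 to 1.66 and Dusp5 from -0.45 to -0.22. Fos and Junb took the other sign without KO 2, Fosb and Nr4a1 without KO 2 or WT 1, Egr4 without KO 6, and Arc without both WT 5 and KO 4. The cause was not tested. With single libraries left out the median of late activity genes ran from -0.19 to -0.034 and that of upstream regulators from -0.055 to -0.0061. That of other early transcription factors ran from -0.27 (without KO 6) to -0.03 (without KO 4), that of early feedback and effector genes from 0.0034 (without KO 6) to 0.087 (without WT 1) and that of EGR partners from -0.086 (without WT 5) to -0.035 (without KO 2). Egr2 had too few counts for the filter; with no filter its log2 fold change was 1.23 and it was not called. The comparison of likeness without KO 4 was chosen after seeing the data.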
